A study of Mus musculus with 12 samples.

Results

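The type I interferon-stimulated genes described here are 32 genes chosen by symbol: interferon beta itself, sensors of foreign nucleic acid, the IFIT, OAS, Mx, Ifi200 and PARP families, the ISG15 system, viperin with its neighbour Cmpk2, and 6 further effectors. All 32 were found among the 25192 genes of the deposited table. They were measured in RAW264.7, a mouse macrophage line derived from a virus-induced tumour, by poly(A) RNA sequencing of 12 libraries. The 4 control libraries (con) came from cells given neither agent. Another 4 (mod) came from cells exposed to lipopolysaccharide (LPS), a component of the bacterial outer membrane, at 1 µg/mL for 24 h. The last 4 (FA) came from cells held for 12 h in 10 µM ferulic acid, a phenolic compound of plants, before that LPS treatment. No group with ferulic acid alone is analysed here, so each ferulic acid comparison is in the presence of LPS. Separate cultures are not stated in the labels, so the replicate spread behind each p-value may be technical only.

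As background, LPS binds Toll-like receptor 4, whose adaptor TICAM1 (TRIF) leads to activation of IRF3 and transcription of Ifnb1. Secreted interferon beta binds the receptor IFNAR on the same and neighbouring cells, and the kinases JAK1 and TYK2 then activate transcription factors. IRF9 takes part in binding a DNA element called the interferon-stimulated response element (ISRE) in the promoters of interferon-stimulated genes. Their products sense, bind or degrade foreign nucleic acid, block virus assembly, or limit the response itself.

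RefSeq promoter windows (GRCm38.p6, 250 bases before to 50 after the annotated start) were found for 23 of the 32 genes. Both strands were searched for the ISRE core, which is GAAA, then any 2 bases, then GAAA, and for the STAT dimer motif GAS, written TTCNNNGAA, and matches of either motif may overlap. The ISRE core was present in 14 of the 28 windows of these genes, belonging to 13 genes, against 3.44% of all 32851 promoter windows of the same length. GAS was present in 5 of the 28 windows, against 8.30% of all windows. The 8 windows below were picked with their matches known, to show how windows with a core look in genes that rose with LPS (Isg15, Oas1a, Oas1g, Ifit1, Rsad2) and windows without one in a gene that rose (Oasl1) and 2 with lower levels (Cmpk2, Dtx3l). Capitals mark matches to the ISRE core on either strand, and sequences run 5′ to 3′ along the gene's own strand.
Isg15 (chr4:156200769-156201068, minus strand): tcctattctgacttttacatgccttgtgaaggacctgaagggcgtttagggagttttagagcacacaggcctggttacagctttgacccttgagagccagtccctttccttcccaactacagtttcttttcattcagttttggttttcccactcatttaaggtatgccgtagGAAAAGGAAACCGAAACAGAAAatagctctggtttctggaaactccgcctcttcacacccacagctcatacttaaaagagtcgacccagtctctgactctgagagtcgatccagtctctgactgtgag
Oas1a (chr5:120907476-120907775, minus strand): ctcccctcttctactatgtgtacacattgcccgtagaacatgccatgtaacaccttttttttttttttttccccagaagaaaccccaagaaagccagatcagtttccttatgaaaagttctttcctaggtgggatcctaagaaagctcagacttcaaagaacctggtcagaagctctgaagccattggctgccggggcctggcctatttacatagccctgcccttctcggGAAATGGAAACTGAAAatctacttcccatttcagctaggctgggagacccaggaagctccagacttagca
Oas1g (chr5:120887564-120887863, minus strand): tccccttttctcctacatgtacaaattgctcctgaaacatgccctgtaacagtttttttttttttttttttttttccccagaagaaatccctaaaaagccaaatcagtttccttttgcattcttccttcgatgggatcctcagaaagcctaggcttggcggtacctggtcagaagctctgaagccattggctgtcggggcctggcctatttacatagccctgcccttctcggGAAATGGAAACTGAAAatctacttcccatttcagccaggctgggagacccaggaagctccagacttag
Ifit1 (chr19:34640639-34640938, plus strand): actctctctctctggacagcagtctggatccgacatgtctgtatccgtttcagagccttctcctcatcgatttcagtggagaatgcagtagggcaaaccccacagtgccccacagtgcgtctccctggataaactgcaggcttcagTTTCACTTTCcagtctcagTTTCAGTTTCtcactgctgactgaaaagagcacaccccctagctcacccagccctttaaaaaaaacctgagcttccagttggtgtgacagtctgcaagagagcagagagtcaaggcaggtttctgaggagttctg
Rsad2 (chr12:26456403-26456702, minus strand): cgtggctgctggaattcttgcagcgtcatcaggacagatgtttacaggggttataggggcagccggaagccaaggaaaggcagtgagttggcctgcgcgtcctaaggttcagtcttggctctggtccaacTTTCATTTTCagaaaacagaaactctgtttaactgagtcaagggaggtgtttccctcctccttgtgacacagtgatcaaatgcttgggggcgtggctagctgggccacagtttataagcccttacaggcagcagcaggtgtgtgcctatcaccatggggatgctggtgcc
Cmpk2 (chr12:26468965-26469264, plus strand): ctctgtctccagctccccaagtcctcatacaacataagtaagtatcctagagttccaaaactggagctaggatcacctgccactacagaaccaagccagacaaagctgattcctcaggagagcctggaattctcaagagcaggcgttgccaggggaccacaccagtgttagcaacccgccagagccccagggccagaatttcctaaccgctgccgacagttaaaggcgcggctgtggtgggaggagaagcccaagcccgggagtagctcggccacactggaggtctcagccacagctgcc
Oasl1 (chr5:114922990-114923289, plus strand): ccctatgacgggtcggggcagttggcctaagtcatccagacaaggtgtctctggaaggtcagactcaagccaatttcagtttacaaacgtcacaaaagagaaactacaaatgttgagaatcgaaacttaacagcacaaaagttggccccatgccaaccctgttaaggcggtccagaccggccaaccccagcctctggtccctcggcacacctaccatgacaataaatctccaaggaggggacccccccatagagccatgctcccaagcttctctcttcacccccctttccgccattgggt
Dtx3l (chr16:35938978-35939277, minus strand): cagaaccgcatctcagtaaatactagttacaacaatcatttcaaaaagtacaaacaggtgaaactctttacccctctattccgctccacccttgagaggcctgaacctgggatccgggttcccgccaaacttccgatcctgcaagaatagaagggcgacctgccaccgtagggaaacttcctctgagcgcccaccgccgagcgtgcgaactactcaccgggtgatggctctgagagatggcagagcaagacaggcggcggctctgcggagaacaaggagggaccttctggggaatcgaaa
Isg15 held 3 overlapping cores that began 78, 72 and 66 bases before the start. Oas1a and Oas1g each held 2 overlapping cores, and Ifit1 held 2 separate ones. Rsad2 had 1 core and its neighbour Cmpk2 had no match in its window, nor did Dtx3l. Ifnb1, Oasl1, Xaf1 and all 3 windows of Isg20 held none either, and these genes rose more than Oas1a and Ifit1. Ifit2, Oasl2, Ifi44 and Ifi35 held none too and rose less than Oas1a and Ifit1. Isg15, Rsad2 and Oas1g, with cores, rose more than Xaf1 and Isg20. Bst2, Ifit3, Oas3, Ifih1, Trim30a and Ifi203 (not in every window) also held cores and rose less than Oas1a and Ifit1. Cores were also present for Ifi205 and Ifit3b, which had few reads. Whether a core goes with the size of the rise was not tested. A match is a run of letters and not a shown binding site, and the absence of a match says only that these letters are not in the window. Windows for Rigi, Zbp1, Oas2, Usp18, Mx1, Mx2, Ifi204, Parp9 and Parp14 were not used here.

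Library totals ran from 32548423 to 49961581 counts. The labelled macrophage identity was checked first: of the 8 macrophage markers listed 7 passed the filter on low counts (Mertk did not), with summed levels of 3888 to 4245 FPKM in control, 1414 to 1631 FPKM with LPS and 1166 to 1778 FPKM with ferulic acid plus LPS (FPKM, the authors' fragment count scaled by gene length and library total). Among them Csf1r and Lyz2 fell with LPS by 3.01 and 2.61 on the log2 scale and Adgre1 rose by 3.15. Markers of T cells, B cells, plasmacytoid dendritic cells, fibroblasts, epithelium and endothelium summed to at most 1.65 FPKM per cell type in any library. Siglech and Ccr9, the plasmacytoid dendritic cell markers, were at 0 in all 8 LPS-treated libraries. Siglech had 120 to 211 reads in the control libraries and was called lower with LPS. The B cell marker Cd79a and the fibroblast marker Dcn were called higher with LPS, by 3.10 and 2.83 on the log2 scale. Their control libraries held 4 to 17 and 2 to 12 reads. Among the 4 ferulic acid libraries, replicates 1 and 4 stood apart from replicates 2 and 3. They lay at -44.0 and -76.6 on the second principal component (6.81% of the variance) against 25.6 and 7.56. Genes whose symbol starts with Rpl or Rps and a digit are taken here as ribosomal protein genes, by name alone. That set held 21.0% and 21.2% of reads in replicates 1 and 4, against 13.3% and 16.5% in replicates 2 and 3. The values of the interferon-stimulated genes with and without these pairs are therefore given below. Control libraries had 7.94% to 10.2% and LPS libraries 14.0% to 16.1% of reads in ribosomal protein genes. The part of this difference in any result was not tested.

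The scaling between libraries sets how a level is read. FPKM as deposited divides by the total count of the library, whereas the tests used TMM scaling (trimmed mean of M-values), which sets the bulk of genes to no change. The TMM factors were 1.49 to 1.55 in control and 0.73 to 0.96 in the LPS-treated libraries. The median log2 fold change of all 14065 tested genes with LPS was -0.10 under TMM scaling and -0.99 under library size scaling. Every LPS change below is from TMM scaling, and on the FPKM scale it sits lower by about that gap. For Rigi and Ifi203 the sign flips under library size scaling, and for Ifi44 the call is lost.

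In response to LPS, 26 of the 31 tested genes were higher than in control, 4 were lower (Parp9, Parp14, Dtx3l and Cmpk2) and Rigi did not pass the test, which asks for an adjusted p (Benjamini-Hochberg, all tested genes) under 0.05. Among all tested genes 35.6% were called higher and 38.3% lower. Over the 31 genes the log2 fold change had a median of 2.46 and ran from -1.88 to 7.96. With library size scaling 24 of the 31 were called higher and 5 lower, while of all genes 17.5% were then called higher and 59.0% lower (2467 and 8305 genes, against 5003 and 5381 under TMM). Ifnb1, Ifi205 and Mx1, 3 of the 26, passed the filter on low counts only with the LPS-treated libraries, which ties their call to the filter. Ifit3b was not tested for want of reads, with 38 in control, 34 with LPS and 14 with ferulic acid plus LPS. In these bulk libraries, fewer cells expressing a gene and less RNA per cell cannot be told apart.

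Together these genes took 0.0902% to 0.117% of reads in control, 0.361% to 0.391% with LPS and 0.306% to 0.387% with ferulic acid plus LPS. Every LPS-treated library lay above every control library, while the LPS and ferulic acid plus LPS ranges overlapped. In TMM-scaled counts (CPM, counts relative to the TMM-adjusted library size), every LPS library was above every control library for 26 of the 31 genes and below for 3, the PARP family. In 35.5% of all tested genes every LPS library was higher and in 39.8% every one was lower.

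**Figure D1:**
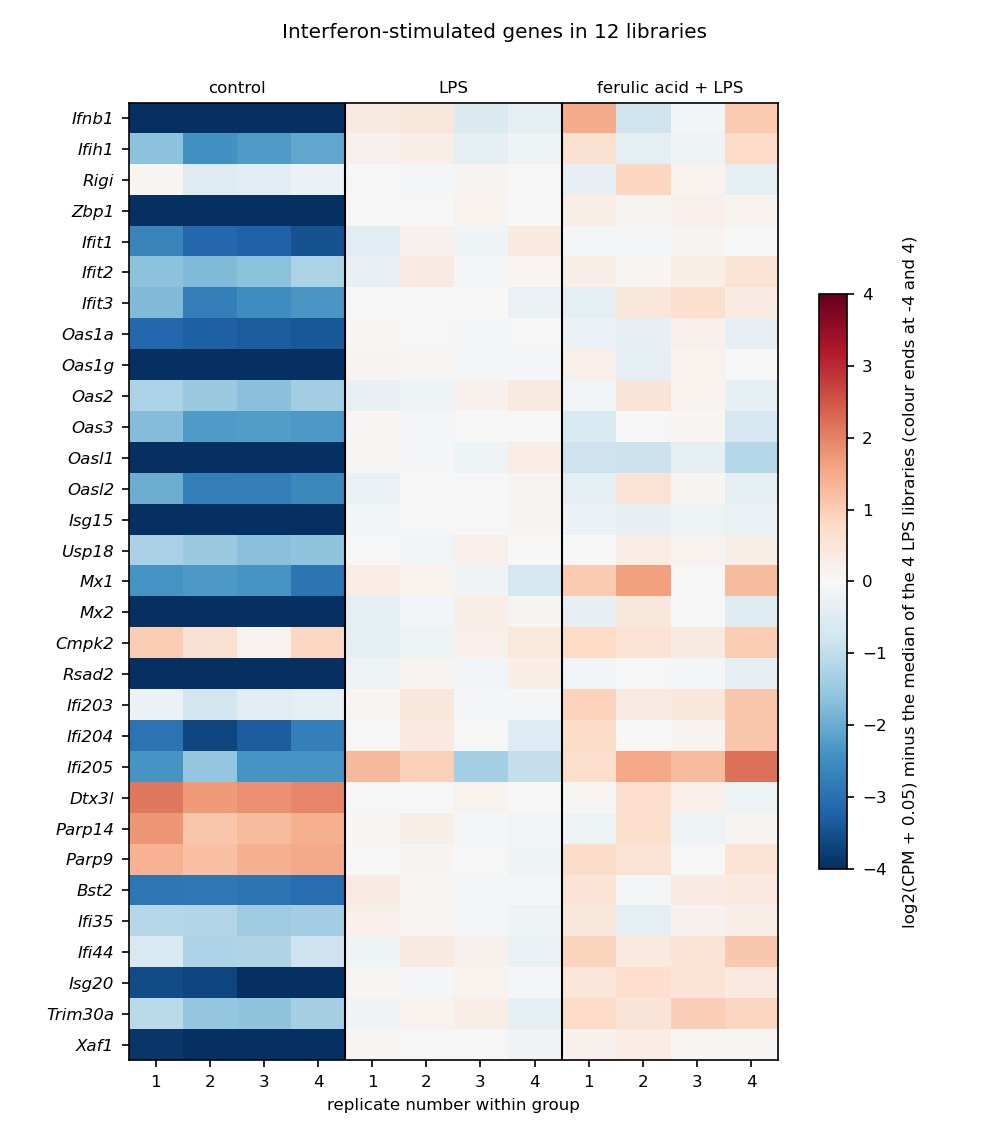
Colour shows log2(CPM + 0.05) of each of 31 tested genes (rows, by family) in each of 12 libraries (columns, by group and replicate), minus that gene's median over the 4 LPS libraries, with colour ends at -4 and 4. Most rows are blue across the 4 control libraries, the rows of Dtx3l, Parp14 and Parp9 are red there, and the ferulic acid plus LPS libraries are pale in most rows.

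**Figure D2:**
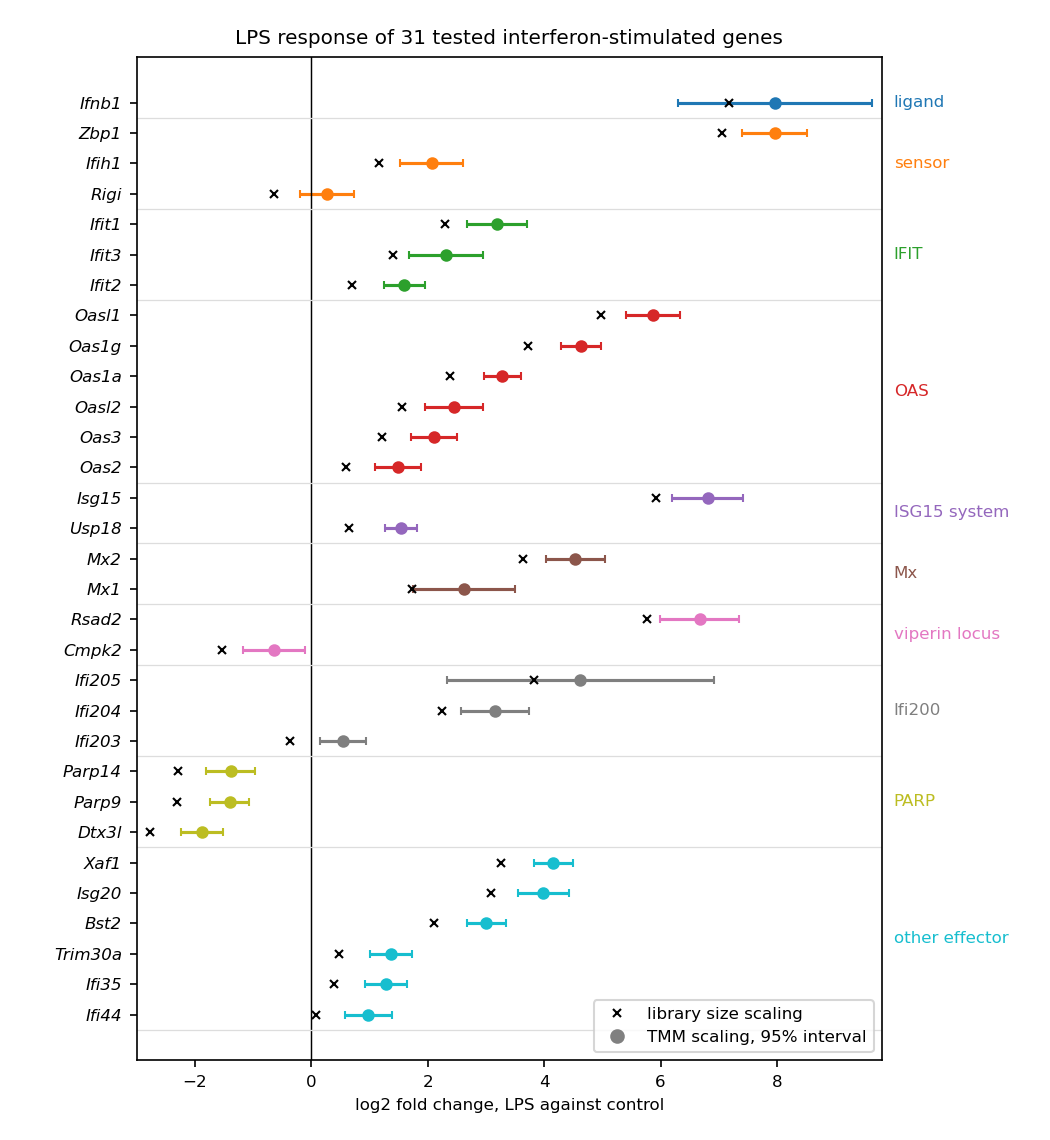
Circles show the log2 fold change of LPS against control (x axis) for 31 genes grouped by family, with 95% intervals under TMM scaling, and crosses show the same under library size scaling. Zbp1 and Ifnb1 lie farthest right at 7.96, Dtx3l farthest left at -1.88, and each cross lies to the left of its circle.

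Ifnb1, the type I interferon made by most cell types, went from nearly no reads to a low but measured level. It had 0, 0, 0 and 2 reads in control replicates 1 to 4, 99, 110, 76 and 80 reads with LPS, and 194, 61, 104 and 159 reads with ferulic acid plus LPS. Every LPS-treated library was above every control library, and the LPS-treated groups overlapped. Since only the LPS-treated libraries carried it past the filter on low counts, Ifnb1 could only differ upwards. The pooled read rate with LPS was 326 times that of control, with a 95% counting interval of 89.5 to 2699, set by the 2 control reads. The fitted log2 fold change was 7.96 (SE 0.79, adjusted p = 1.16e-07). At a mean of 3.09 ± 0.932 FPKM (SD, n = 4) Ifnb1 ranked 22 among the 32 genes with LPS.

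The sensors did not move together. Zbp1, which binds Z-form nucleic acid and can trigger necroptosis, had the largest rise beside Ifnb1. It stood at 0.314, 0.126, 0.445 and 0.364 FPKM in control, at 38.9, 40.3, 47.7 and 42.2 FPKM with LPS, and at 46.3, 52.5, 47.7 and 40.9 FPKM with ferulic acid plus LPS. Control libraries were all far below, and the LPS-treated groups overlapped. Its log2 fold change with LPS was 7.96 (SE 0.27, adjusted p = 1.78e-13). Ifih1, which encodes the RNA sensor MDA5, rose by 2.07 on the log2 scale (SE 0.25), from 1.43 to 2.57 FPKM in control to 3.43 to 4.99 FPKM with LPS.

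Rigi, which encodes the RNA sensor RIG-I, gave a direction that depends on the scaling. It ranged from 7.55 to 11.7 FPKM in control and from 5.50 to 6.65 FPKM with LPS, so that in FPKM every LPS library was below every control library. In TMM-scaled CPM the ranges were 35.8 to 53.8 and 48.4 to 55.0, and they overlapped. The log2 difference was 0.27 under TMM (SE 0.22, adjusted p = 0.284) and -0.63 under library size scaling (adjusted p = 0.0496). With gene length corrected for it was 0.88 and passed the test (adjusted p = 0.000626), and a fit on the control and LPS libraries alone gave 0.28 (adjusted p = 0.0397).

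IFIT proteins bind foreign RNA and block its translation. All 3 tested members rose. Ifit1 read 0.676, 0.450, 0.427 and 0.363 FPKM in control, 1.60, 2.57, 2.13 and 3.16 FPKM with LPS, and 2.08, 2.55, 2.46 and 2.06 FPKM with ferulic acid plus LPS. No control library reached an LPS-treated one, and the LPS-treated groups overlapped. Its log2 fold change was 3.19 (SE 0.25, adjusted p = 6.40e-09).

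Ifit2, the most abundant of the family in the LPS-treated libraries, read 3.13, 2.78, 3.10 and 4.12 FPKM in control, 3.99, 6.43, 5.21 and 5.68 FPKM with LPS, and 5.83, 6.48, 6.12 and 6.82 FPKM with ferulic acid plus LPS. Control replicate 4 and LPS replicate 1 overlapped in FPKM, but not in TMM-scaled CPM, and the log2 fold change was 1.60 (SE 0.17, adjusted p = 2.39e-07). Ifit3, a partner of the other IFIT proteins, rose by 2.31 (SE 0.30). Of the 50-base stretches of its transcript 51.2% also occur in Ifit3b, so the split of reads between these copies is uncertain, and Ifit1 shares 7.14% with other genes.

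OAS enzymes make oligoadenylates that activate RNase L when they meet double-stranded RNA. All 6 members rose, and 3 of them were among the 5 most abundant of the 32 genes with LPS. Oas1a read 60.1, 53.2, 51.6 and 50.9 FPKM in control, 272, 280, 286 and 288 FPKM with LPS, and 222, 263, 319 and 200 FPKM with ferulic acid plus LPS. The 4 LPS libraries lay close together and well above control, while the ferulic acid libraries spread on both sides of them. Its log2 fold change with LPS was 3.28 (SE 0.15, adjusted p = 8.35e-12).

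Oas1g, a tandem copy of Oas1a whose promoter window carries the same overlapping ISRE cores, rose more, by 4.63 (SE 0.16), from 17.0 ± 1.76 to 226 ± 0.313 FPKM (SD, n = 4). The FPKM ratio of Oas1a to Oas1g was 3.17 ± 0.0896 in control and 1.25 ± 0.0321 with LPS, with no overlap between groups. With ferulic acid plus LPS it was 1.13 ± 0.191. Oas1a shares 57.6% of its 50-base stretches with Oas1g, and Oas1g shares 54.15% of its own with Oas1a. Both levels and their ratio therefore depend on how shared reads were counted.

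Oasl1, an OAS-like protein that in mice limits translation of Irf7, showed the largest rise of the family. It read 10.8, 9.53, 8.10 and 6.76 FPKM in control, 259, 257, 248 and 340 FPKM with LPS, and 140, 175, 207 and 109 FPKM with ferulic acid plus LPS. Control was lowest, LPS highest, and all 4 ferulic acid libraries lay between, with no overlap. The log2 fold change with LPS was 5.87 (SE 0.22, adjusted p = 8.72e-13). Oas2, Oas3 and Oasl2 rose by 1.49, 2.11 and 2.46.

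ISG15 is a ubiquitin-like protein attached to other proteins, and Usp18 removes it and also dampens signalling at IFNAR. Both rose, by very different amounts. Isg15 read 6.84, 6.08, 3.64 and 2.24 FPKM in control, 243, 278, 295 and 318 FPKM with LPS, and 220, 267, 244 and 208 FPKM with ferulic acid plus LPS. The control libraries were all far below, and in FPKM the LPS-treated groups overlapped. Isg15 changed by 6.80 on the log2 scale (SE 0.29, adjusted p = 3.22e-12), and Usp18 by 1.54 (SE 0.13, adjusted p = 1.67e-08). The FPKM ratio of Isg15 to Usp18 went from 0.256 ± 0.0963 in control to 10.1 ± 1.20 with LPS (SD, n = 4).

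Mx proteins are GTPases that block virus replication, Mx1 in the nucleus and Mx2 in the cytoplasm of mouse cells. Many inbred mouse strains carry a defective Mx1. Mx2 read 1.19, 0.823, 0.714 and 0.897 FPKM in control, 8.31, 10.3, 14.1 and 12.6 FPKM with LPS, and 8.26, 18.3, 11.1 and 7.17 FPKM with ferulic acid plus LPS. All LPS-treated libraries were above control, and ferulic acid replicate 2 was the highest of all. The log2 fold change with LPS was 4.53 (SE 0.24, adjusted p = 5.19e-11). Mx1 rose by 2.63 (SE 0.42) but stayed rare, at 0.340 ± 0.0825 FPKM with LPS (SD, n = 4).

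Rsad2, which encodes viperin, and Cmpk2, which encodes a mitochondrial nucleotide kinase, are neighbours on chromosome 12 read from opposite strands, and they went opposite ways. Rsad2 read 0.518, 0.205, 0.133 and 0.182 FPKM in control, 11.3, 14.6, 13.3 and 17.2 FPKM with LPS, and 11.8, 16.5, 12.8 and 9.67 FPKM with ferulic acid plus LPS. Cmpk2 read 2.18, 1.59, 1.15 and 1.91 FPKM in control, 0.413, 0.482, 0.676 and 0.782 FPKM with LPS, and 0.915, 0.997, 0.726 and 1.01 FPKM with ferulic acid plus LPS. The groups did not overlap for Rsad2 between control and LPS. For Cmpk2 every control library was above every LPS library in FPKM, whereas in TMM-scaled CPM they overlapped.

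Rsad2 rose by 6.67 (SE 0.32, adjusted p = 1.89e-11). Cmpk2 fell by 0.64 (SE 0.25, adjusted p = 0.0285), and its FPKM ratio to Rsad2 turned over: Rsad2 over Cmpk2 was 0.145 ± 0.0638 in control and 24.8 ± 4.90 with LPS (SD, n = 4). The Cmpk2 call was lost with gene length corrected for (-0.45, adjusted p = 0.116). It was also lost without control replicate 1 (-0.51), control replicate 4 (-0.59), LPS replicate 1 (-0.52) or LPS replicate 2 (-0.56), and held under library size scaling (-1.53).

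Ifi200 proteins carry HIN domains that bind DNA, and Ifi204 takes part in DNA sensing. All 3 were called higher under TMM scaling, Ifi205 as a gene that the low-count filter kept only through its ferulic acid libraries, and Ifi203 turned to -0.36 under library size scaling. Ifi204 read 2.05, 1.19, 1.52 and 2.39 FPKM in control, 8.07, 11.0, 8.74 and 6.16 FPKM with LPS, and 13.1, 10.1, 9.12 and 16.4 FPKM with ferulic acid plus LPS. Control lay below all LPS-treated libraries, and ferulic acid replicates 1 and 4 were the highest of all. The log2 fold change with LPS was 3.15 (SE 0.27, adjusted p = 2.61e-08), and Ifi204 shares 30.2% of its 50-base stretches with other genes, most with Ifi211.

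Ifi203 was at 7.88 ± 1.20 FPKM in control and 6.16 ± 1.07 FPKM with LPS (SD, n = 4), with a TMM-based log2 fold change of 0.55 (SE 0.18, adjusted p = 0.0133). That call was lost without control replicate 2 (0.46) or LPS replicate 2 (0.41). Ifi205 was close to absent in control. It had 0, 2, 0 and 0 reads there, 16, 13, 2 and 3 reads with LPS, and 9, 27, 23 and 31 reads with ferulic acid plus LPS. The pooled read rate was 30.3 times higher with LPS, with a 95% counting interval of 7.77 to 261. The filter needs 4 libraries past its cutoff, which 0 control, 2 LPS and 4 ferulic acid libraries reached, so a fit on control and LPS alone could not test Ifi205, and only a rise could be called. LPS replicates 1 and 2 held most of its reads, and the limma test on log2(FPKM + 0.1) did not pass (adjusted p = 0.0519).

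The PARP subgroup fell. Parp9 and its partner Dtx3l form a complex that attaches ubiquitin at sites of ADP-ribosylation, and Parp14 attaches ADP-ribose to proteins; the 3 genes are adjacent on chromosome 16. Parp9 read 11.2, 9.60, 11.4 and 12.4 FPKM in control, 2.15, 2.43, 2.37 and 2.11 FPKM with LPS, and 3.53, 4.02, 2.28 and 2.97 FPKM with ferulic acid plus LPS. Parp14 read 8.71, 5.43, 6.04 and 7.00 FPKM in control, 1.31, 1.58, 1.39 and 1.30 FPKM with LPS, and 1.10, 2.62, 1.16 and 1.30 FPKM with ferulic acid plus LPS. Dtx3l read 12.3, 8.99, 10.0 and 11.1 FPKM in control, 1.43, 1.47, 1.75 and 1.57 FPKM with LPS, and 1.44, 2.85, 1.74 and 1.18 FPKM with ferulic acid plus LPS. For each of the 3, every control library was above every LPS-treated library, also in TMM-scaled CPM.

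The log2 fold changes with LPS were -1.40 for Parp9 (SE 0.16, adjusted p = 4.98e-07), -1.38 for Parp14 (SE 0.20, adjusted p = 9.91e-06) and -1.88 for Dtx3l (SE 0.17, adjusted p = 5.20e-08). All 3 were called lower under every alternative run, and library size scaling put them at -2.30, -2.29 and -2.77. Parp9 and Dtx3l overlap by 458 exonic bases on opposite strands, and without the strand setting of the authors' counting those reads cannot be told apart.

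The remaining effectors all rose under TMM scaling. Bst2 (tetherin), which holds budding virus at the cell surface, was the most abundant of the 32 genes in all 3 groups. It read 161, 158, 154 and 144 FPKM in control, 749, 641, 636 and 630 FPKM with LPS, and 855, 712, 785 and 739 FPKM with ferulic acid plus LPS. Control was lowest throughout, and the LPS-treated groups overlapped. The log2 fold change with LPS was 3.01 (SE 0.16, adjusted p = 5.52e-11).

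Xaf1, a pro-apoptotic binding partner of XIAP, showed the largest rise of these 6 genes. It read 2.09, 1.71, 1.66 and 1.31 FPKM in control, 16.1, 15.9, 17.5 and 15.3 FPKM with LPS, and 17.3, 24.0, 17.2 and 15.3 FPKM with ferulic acid plus LPS. All LPS-treated libraries lay above control and the LPS-treated groups overlapped. The log2 fold change was 4.16 (SE 0.16, adjusted p = 9.01e-13). Isg20, an exonuclease that degrades RNA, rose by 3.99 (SE 0.20), and Ifi35, a partner of Nmi, by 1.29 (SE 0.17). An antisense gene overlaps 16.8% of the exonic bases of Ifi35.

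Ifi44 had the smallest rise of the 6, and Trim30a rose about as much as Ifi35. Ifi44 read 15.4, 9.62, 9.90 and 13.2 FPKM in control, 10.1, 15.4, 14.7 and 10.6 FPKM with LPS, and 21.3, 18.8, 18.0 and 23.2 FPKM with ferulic acid plus LPS. Control and LPS overlapped in FPKM but not in TMM-scaled CPM. Its log2 fold change was 0.98 under TMM (SE 0.19, adjusted p = 0.000205) and 0.08 under library size scaling (adjusted p = 0.694). Trim30a, which in mice restrains Toll-like receptor signalling, read 4.85, 3.40, 3.24 and 4.14 FPKM in control, 4.60, 5.92, 6.79 and 4.42 FPKM with LPS, and 8.53, 9.17, 10.7 and 8.89 FPKM with ferulic acid plus LPS. Control and LPS overlapped in FPKM but not in CPM, and the log2 fold change was 1.37 (SE 0.17, adjusted p = 1.63e-06).

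**Figure D3:**
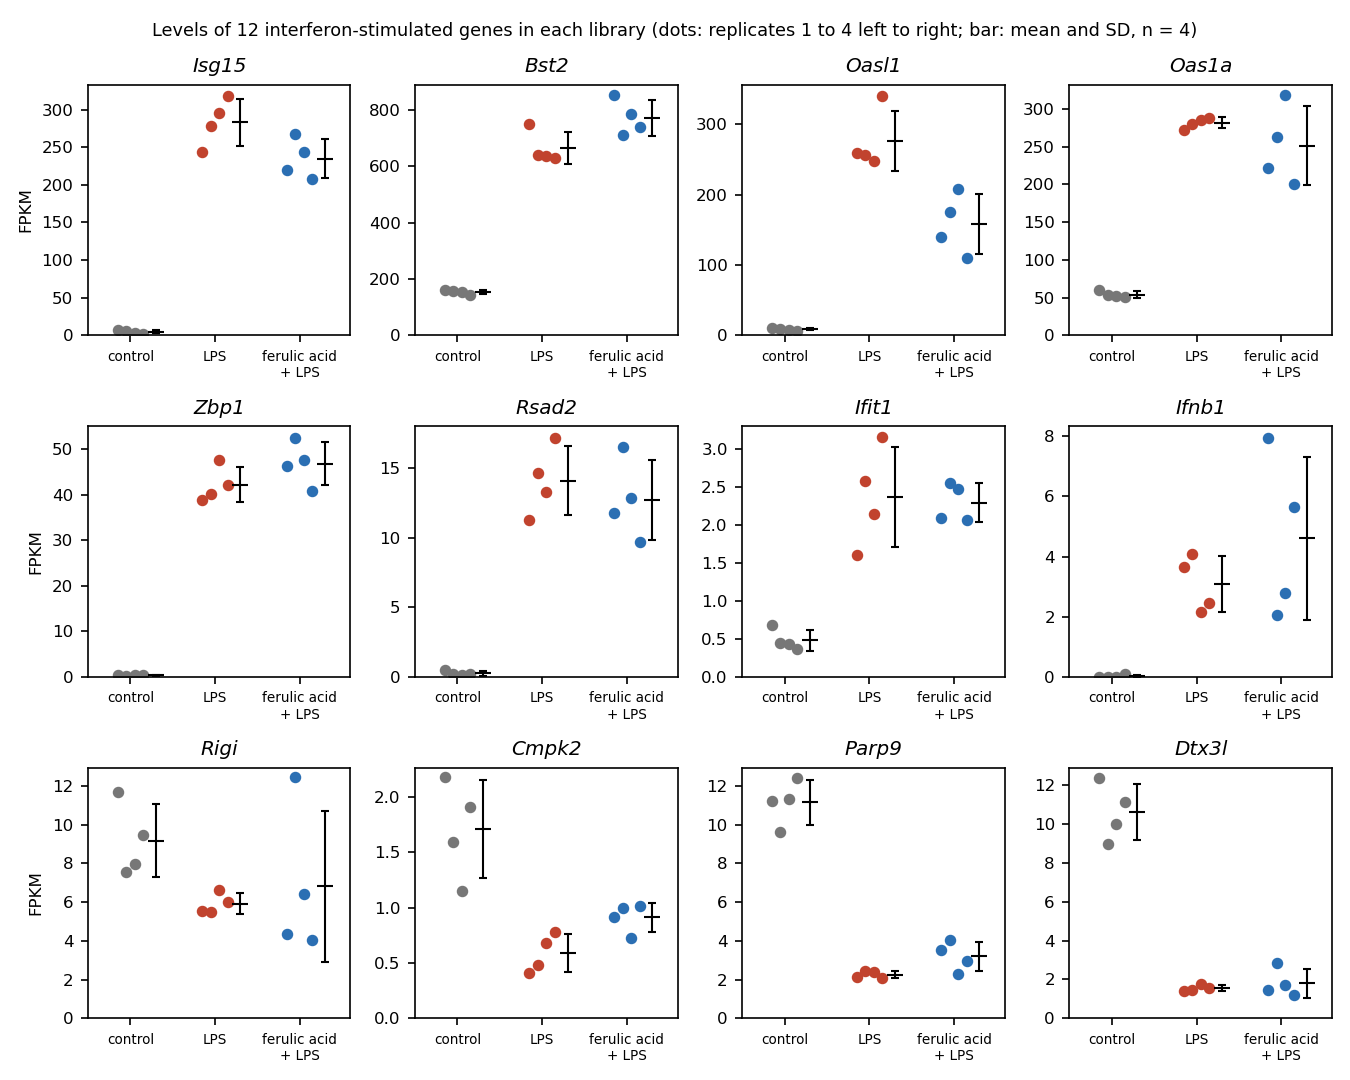
Dots show FPKM (y axis, from 0) of 12 genes in each library, by group (x axis), with replicates 1 to 4 from left to right, and the bar beside them is the mean and SD (n = 4). Isg15, Bst2, Oasl1, Oas1a, Zbp1, Rsad2, Ifit1 and Ifnb1 are higher in LPS-treated libraries, Cmpk2, Parp9 and Dtx3l are lower, and for Rigi ferulic acid replicate 2 is the highest library at 12.5 FPKM.

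Levels per length spanned a wide range. With LPS, Bst2 stood at 664 FPKM, followed by Isg15 at 283, Oas1a at 281, Oasl1 at 276 and Oas1g at 226 FPKM. The ranges of Isg15, Oas1a and Oasl1 overlapped, whereas Bst2 lay above and Oas1g below all 3 without overlap. Next came Oas3 at 43.4, Zbp1 at 42.3 and Usp18 at 28.2 FPKM, of which Oas3 and Zbp1 overlapped. From Xaf1 (16.2 FPKM) down to Parp9 (2.26 FPKM) each gene overlapped its neighbour in the order. At the low end were Cmpk2 at 0.588, Mx1 at 0.340, Ifit3b at 0.106 and Ifi205 at 0.0549 FPKM.

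In control the order was different. Bst2 was again first, at 155 FPKM, and Oas1a second, at 54.0 FPKM, each clear of its neighbour. Oas3, Usp18 and Oas1g followed, at 18.8, 18.0 and 17.0 FPKM with overlapping ranges. Isg15, second with LPS, stood at 4.70 FPKM in control and Zbp1 at 0.312 FPKM. Parp9 and Dtx3l stood at 11.2 and 10.6 FPKM in control, in the upper part of the order, and at 2.26 and 1.55 FPKM with LPS.

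A list of other genes of the pathway was read beside these, and of 87 listed genes 77 were in the table and 71 were tested. With LPS, 32 of the 71 were higher and 18 lower (median log2 fold change 0.27), but with library size scaling 21 were higher and 38 lower. Of the 5 receptor chains tested, Ifngr2 rose (0.99, SE 0.14) and Ifngr1, the ligand-binding chain for interferon gamma, fell by 1.84 (SE 0.16). Under library size scaling Ifngr2 was no longer called (0.10). The IFNAR chain Ifnar1 did not pass (0.40, adjusted p = 0.0907).

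Among the kinase genes Jak2 (0.61) was called higher under TMM scaling and lay at -0.29 under library size scaling, while Tyk2 did not pass (-0.13, adjusted p = 0.387). Of 7 IRF genes, 5 rose and 1 fell. Irf7, the IRF that amplifies interferon production, rose from 7.75 ± 1.31 to 319 ± 30.5 FPKM (SD, n = 4), which is 6.27 on the log2 scale (SE 0.20, adjusted p = 1.28e-13), and Irf8 and Irf5 rose by 2.11 and 1.23. With library size scaling 3 IRF genes were called higher and 3 lower.

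Of 12 genes that lead to interferon induction, 4 rose and 7 fell: Tlr4, the LPS receptor, fell by 2.97 (SE 0.29), while its adaptor Ticam1 and the RIG-I relative Dhx58 rose by 1.98 and 1.73. Of 6 inhibitors tested, 2 rose and 2 fell, with Socs3, a feedback inhibitor of JAK signalling, up by 4.88 (SE 0.15) and Pias1 and Ptpn11 down by 1.39 and 0.82. Among 35 other interferon-stimulated genes tested, 18 rose and 7 fell, and library size scaling made this 13 and 16. Ifitm3, which blocks virus entry, rose by 3.15, Phf11b by 3.51 and Tor3a by 2.54. Ifnk was in the table with too few reads to test, and the other interferon genes listed were not analysed here.

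Ferulic acid before LPS, compared with LPS alone, gave no called change in any of the 31 genes under edgeR's quasi-likelihood test. Among all tested genes 0.0853% were called higher and 0.199% lower, 12 and 28 of 14065. The log2 differences were above 0 for 23 of the 31 genes and below 0 for 8, with a median of 0.18 against 0.02 for all genes. At an unadjusted p under 0.05 there were 9 of the 31, where 12.7% of all genes were higher and 10.3% lower at that level. DESeq2 called 4 of the 31 higher (Trim30a, Ifi44, Ifi203 and Parp9) and Oasl1 lower, where it called 3.42% of all genes higher and 3.58% lower.

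Trim30a, Oasl1 and Ifi44 had the smallest p-values. Trim30a was at 5.43 ± 1.13 FPKM with LPS and 9.33 ± 0.975 FPKM with ferulic acid plus LPS (SD, n = 4), a log2 difference of 0.80 (SE 0.17, adjusted p = 0.0548), and all 4 ferulic acid libraries were above all 4 LPS libraries. Oasl1 was at 276 ± 42.9 and 158 ± 42.6 FPKM, a difference of -0.81 (SE 0.18, adjusted p = 0.0636), with all 4 below. Ifi44 was at 12.7 ± 2.71 and 20.3 ± 2.38 FPKM, a difference of 0.71 (SE 0.19, adjusted p = 0.0869), with all 4 above. In TMM-scaled CPM, Isg20 was also higher and Isg15 also lower in all 4 libraries, so 3 of the 31 genes lay wholly above and 2 wholly below, where 2.67% and 4.36% of all genes did.

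For Isg15, Rsad2, Ifit1, Oas1g, Zbp1, Bst2 and Ifnb1 the 95% interval of the difference included 0. Isg15 was at -0.26 with a 95% interval of -0.72 to 0.20, Rsad2 at -0.15 (-0.66 to 0.36), Ifit1 at -0.03 (-0.50 to 0.44) and Oas1g at -0.01 (-0.30 to 0.28). For Zbp1 the difference was 0.16 (-0.24 to 0.56) and for Bst2 0.24 (-0.07 to 0.55). Ifnb1 was less precisely measured, at 0.63 (-0.33 to 1.59). Mx1 and Ifi205 had the widest departures from 0, at 1.18 (0.39 to 1.97) and 1.29 (-0.34 to 2.93), both at very low levels. Parp9 stood at 0.50 (0.17 to 0.83, adjusted p = 0.105), Cmpk2 at 0.66 (0.13 to 1.19, adjusted p = 0.149) and Ifi203 at 0.62 (0.23 to 1.01, adjusted p = 0.101).

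The ferulic acid libraries differed among themselves more than the LPS libraries did. The coefficient of variation was larger with ferulic acid plus LPS for 23 of the 31 genes, with a median of 23.0% against 13.6%. A wide spread was also seen over all genes. There, pairs of libraries differed by a chi-square per gene (difference relative to sampling noise) of 27.1 to 403 with ferulic acid plus LPS and 34.4 to 79.4 with LPS. In 9 genes replicates 1 and 4 were both above replicates 2 and 3, among them Ifnb1, Ifih1, Ifi203, Ifi204 and Bst2. In another 9 they were both below, among them Rigi, Oas2, Oas3, Oasl2, Mx2 and Dtx3l. The shares of all genes with a larger coefficient of variation or with either pattern were not counted, so none of these counts is a trait of these genes. Rigi, for example, read 4.33, 12.5, 6.40 and 4.05 FPKM in replicates 1 to 4.

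Without replicates 2 and 3, 10 of the 31 genes were called higher and 3 lower in ferulic acid plus LPS against LPS, and of all genes 17.9% were called higher and 19.8% lower. Replicates 1 and 4, kept there, were the most alike of the group, at a chi-square per gene of 27.1 against 130 to 403 for its other pairs. That pair was picked after the split was seen, so the small spread behind these calls was selected. Without replicates 1 and 4, 0 of the 31 genes were called, and of all genes 0.0266% were higher and 0.0199% lower. The signs of several genes turned between these subsets: Ifnb1 was at 1.25 without replicates 2 and 3 and at -0.45 without replicates 1 and 4, and Oas3 at -0.65 and 0.04. Trim30a and Oasl1 kept their signs, at 0.81 and -1.03 without replicates 2 and 3 and at 0.78 and -0.63 without replicates 1 and 4. They were not alone, as 19 of the 31 genes kept their sign in every alternative run that gave a value. Leaving out ferulic acid replicate 2 alone gave 4 higher and 1 lower (9.21% and 9.22% of all genes), leaving out replicate 3 alone gave 5 and 1 (4.89% and 4.87%), and leaving out any other single library gave 0. What set replicates 1 and 4 apart was not tested.

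**Figure D4:**
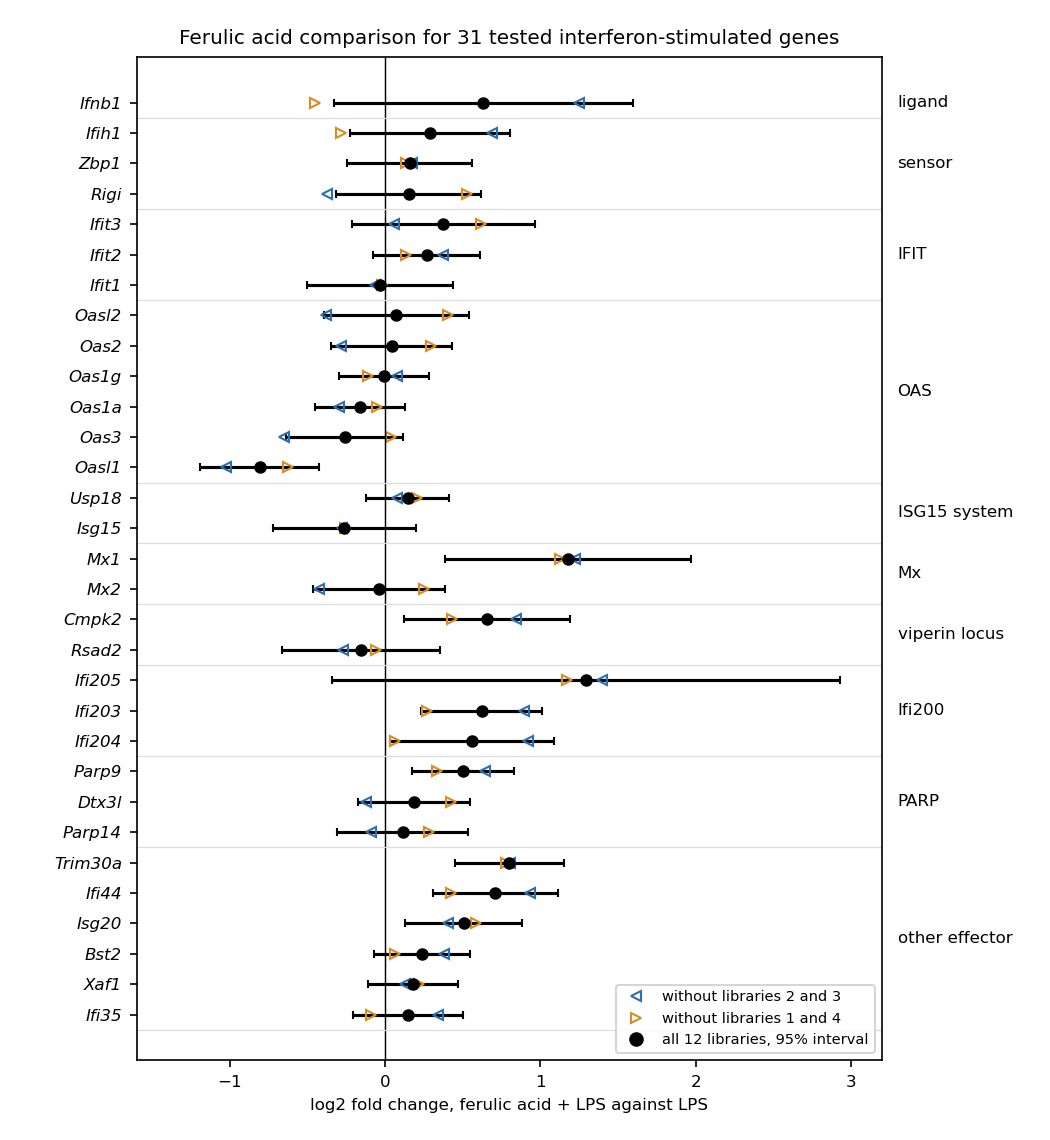
Circles show the log2 difference of ferulic acid plus LPS against LPS (x axis) with 95% intervals for 31 genes grouped by family, and triangles show it without ferulic acid libraries 2 and 3 or without 1 and 4. Oasl1 lies lowest at -0.81, the intervals of Oasl1, Trim30a, Ifi44, Isg20, Mx1, Cmpk2, Parp9, Ifi203 and Ifi204 do not cross 0, and no adjusted p was under 0.05.

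The pathway list gave no call either: 0 of its 71 tested genes passed in ferulic acid plus LPS against LPS. Its smallest adjusted p was 0.0582. Irf7 was at 319 ± 35.2 FPKM with ferulic acid plus LPS (SD, n = 4), a difference of 0.01 (SE 0.16). Ticam1 was at -0.54 (SE 0.15, adjusted p = 0.0930).

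Ferulic acid plus LPS against control, which shares its control libraries with the LPS comparison, gave 26 of the 31 genes higher and 3 lower (Parp9, Parp14 and Dtx3l), with a median log2 fold change of 2.69. Among all genes 35.8% were called higher and 37.5% lower. With library size scaling 25 of the 31 were called higher and 4 lower, beside 2536 higher and 8268 lower among all 14065 genes. Rigi (0.42, adjusted p = 0.0966) and Cmpk2 (0.02, adjusted p = 0.953) did not pass under TMM scaling. Both turned negative under library size scaling, Rigi to -0.43 (adjusted p = 0.171) and Cmpk2 to -0.90, where Cmpk2 was called lower (adjusted p = 0.00438). Rigi was called higher with gene length corrected for (1.01, adjusted p = 0.000173), without ferulic acid replicate 1 (0.56, adjusted p = 0.0337), without replicate 4 (0.57, adjusted p = 0.0227) and without both (0.80, adjusted p = 0.000844). Without ferulic acid replicate 2 it was at 0.075 (adjusted p = 0.671), and without replicates 2 and 3 at -0.11 (adjusted p = 0.509). Set beside the LPS changes given above, Isg15 was at 6.54, Zbp1 at 8.11, Rsad2 at 6.51, Oasl1 at 5.06 and Ifit1 at 3.16. Dtx3l was at -1.69, Parp14 at -1.27 and Parp9 at -0.90.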

How the data were processed

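RNA-seq of 12 RAW264.7 libraries in 3 groups of 4 was analysed from 1 table. The authors deposited unnormalized counts of reads for each gene as whole numbers, per the file headers. FPKM values were deposited beside them, and each equals the count divided by gene length and library total: 100% of the count and FPKM pairs gave 1 whole length per gene within 0.1%. The submitters' processing notes name GRCm39 and, in an order of no meaning, edgeR 3.36.0, DESeq2 1.34.0, featureCounts 2.0.6, fastp 0.23.4 and HISAT2 2.2.1. Their roles, the annotation and the strand setting are not given in the sources used here, so overlapping genes on opposite strands cannot be told apart. Per the labels' protocols, mRNA was isolated on oligo-dT beads.

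Counts were tested with the quasi-likelihood F test of edgeR 4.0.16 in R 4.3.3 (with limma 3.58.1): TMM scaling, filterByExpr, group as the only term, and all 12 libraries in one fit. The filter kept 14065 genes, and the 11127 left out hold 0.0421% of reads. Adjusted p-values are Benjamini-Hochberg over all genes tested, the threshold is 0.05, intervals are 95%, and SE is log2 fold change over root F. The 3 comparisons set LPS against control, and ferulic acid plus LPS against each of these groups. The fit was also run on simulated data in which every group had the LPS mean of each gene, apart from genes changed on purpose in the ferulic acid group. Those data held neither the shift between control and LPS nor the split among the ferulic acid libraries. They therefore cannot show how the fit behaves under either. Intervals on pooled reads are exact and hold for counting error alone, because without molecular identifiers a read is not an independent molecule. Of the table's genes, 91 have no symbol and 36 share a symbol, and these were kept under their identifiers.

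Alternatives were DESeq2's size factors in edgeR, library size scaling, DESeq2 1.42.0, no filter, a filter of 10 CPM in 4 libraries, limma on log2(FPKM + 1) and log2(FPKM + 0.1), only the 2 groups compared, a replicate block, removal of a gene length trend, each library left out, and either pair of ferulic acid libraries left out. All pairs of libraries within a group differed by more than sampling noise (the lowest chi-square per gene was 11.6), and each counts as 1 replicate. Shared 50-base stretches, overlaps and neighbours come from GENCODE M21, and promoters from RefSeq (GRCm38.p6); neither build is that of the counts.

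All 32 genes are named. Values in every library are given for the most abundant and the most changed gene of each family, for each gene called lower, and for the 3 genes with the smallest p between ferulic acid plus LPS and LPS. Of the pathway list up to 3 genes per class are named, those with the smallest p for LPS against control, and 1 gene that this rule picks is not reported here. The genes, lists, rules and the pairs of ferulic acid libraries left out were chosen with earlier results of these data known.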

Additional observations from a re-analysis of the deposited data

Results flagged for a closer look

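Within groups of 4 libraries, 7 of 93 gene and group combinations held a library whose gap to its nearest neighbour, as a share of the group's range, exceeded Dixon's 95% critical value, and chance alone gives about 1 in 20. In control, Ifnb1 was at 0.0377 CPM in replicate 4 and at 0 in the others, Ifi205 was at 0.0373 CPM in replicate 2 and at 0 in the others, and Oas3 was at 113 CPM in replicate 1 against 77.3 to 81.1. Both low values rest on 2 reads. In the LPS group, Zbp1 was at 197 CPM in replicate 3 against 177 to 180, Dtx3l at 11.7 CPM in replicate 3 against 10.5 to 10.7, and Ifit3 at 2.71 CPM in replicate 4 against 3.27 to 3.38. With ferulic acid plus LPS, Oas1a was at 742 CPM in replicate 3 against 517 to 554.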

How the results depend on the processing

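For LPS against control, 26 of the 30 calls held under each of the 24 alternatives that gave a value (Cmpk2, Ifi203, Ifi205 and Ifi44 each lost theirs under some) and all but Ifi203 kept their sign, and for ferulic acid plus LPS against control 28 of 29 calls held likewise, Ifi203 losing its own under library size scaling and on both FPKM scales. For ferulic acid plus LPS against LPS, 19 of the 31 genes kept their sign wherever there was a value. The 10 CPM filter gave none for Ifnb1, Ifit1, Ifit3, Mx1, Cmpk2 and Ifi205, and the fit of only 2 groups gave none for Ifi205 in LPS against control. Calls among all genes in ferulic acid plus LPS against LPS ranged widely. They numbered 40 in the reported fit, 985 with DESeq2, 719 with no filter, 71 with the 10 CPM filter and 92 with the gene length trend removed. There were 2 with library size scaling and 1 with log2(FPKM + 1). The count was 0 with log2(FPKM + 0.1), with only the 2 groups compared and with the replicate block. Leaving out ferulic acid libraries 2 and 3 gave 5664, leaving out libraries 1 and 4 gave 7, and leaving out 1 library gave 0 to 2670 (2670 without ferulic acid replicate 2, 1415 without replicate 3, and at most 5 without any other). Of the 31 genes, those called higher and lower numbered 4 and 1 with DESeq2, 3 and 1 with no filter, 1 and 0 with the 10 CPM filter, 1 and 1 with the length trend removed, 10 and 3 without libraries 2 and 3, and 0 to 5 and 0 to 1 when 1 library was left out. Same-numbered libraries correlated between -0.20 and 0.08 in their deviations from the group mean. Differently numbered libraries were not set beside them, so these values show no pairing by number and cannot exclude one. The replicate block gave 10041 and 9935 calls among all genes in the comparisons with control (10384 and 10315 in the reported fit) and changed no call among the 31.

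Signs turned as follows. Under library size scaling, log2(FPKM + 0.1) and log2(FPKM + 1), LPS against control gave Ifi203 -0.36, -0.35 and -0.31 and Rigi -0.63, -0.61 and -0.54, while ferulic acid plus LPS against control gave Rigi -0.43, -0.55 and -0.48 and Cmpk2 -0.90, -0.81 and -0.49. Cmpk2 there was also at -0.017 with no filter and -0.20 without libraries 1 and 4, and Rigi at -0.11 without libraries 2 and 3. For ferulic acid plus LPS against LPS, Oas1g was at 0.014 with the 10 CPM filter. Without libraries 1 and 4 Ifih1 was at -0.28, Ifnb1 at -0.45, Oas3 at 0.041, Ifi35 at -0.093 and Mx2 at 0.25. Without libraries 2 and 3 Rigi was at -0.37, Oas1g at 0.075, Oas2 at -0.28, Oasl2 at -0.38, Parp14 at -0.091 and Dtx3l at -0.12. When 1 library was left out, the same comparison gave -0.19 to 0.29 for Rigi, -0.073 to 0.085 for Oas1g, -0.15 to 0.17 for Oas2, -0.18 to 0.19 for Oasl2, -0.15 to 0.22 for Parp14, -0.015 to 0.30 for Dtx3l, -0.27 to 0.081 for Mx2 and -0.16 to 0.12 for Ifit1, and Cmpk2 against control gave -0.13 to 0.15. The cause was not tested. Genes near the low-count limit (Ifnb1, Ifi205, Mx1, Ifit3b) are limited by depth.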
